A study of Mus musculus with 18 samples.

Results

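mTORC1 is the kinase complex that drives protein synthesis and growth from the lysosome when amino acids, energy and growth factors are at hand, and a set of upstream proteins holds it back when they are not. Sestrins bind the GATOR2 complex and keep it from activating mTORC1, with the SESN2 protein acting as a leucine sensor and CASTOR1 as an arginine sensor. TSC1 and TSC2 form the complex that turns off the GTPase Rheb, DDIT4 (also called REDD1) promotes TSC activity, AMPK acts on both TSC2 and mTORC1, and DEPTOR binds mTOR itself. Sesn1 and Sesn2 are known p53 target genes, and Sesn2 and Ddit4 are also known targets of ATF4, the transcription factor of the amino acid and ER stress response. The 9 genes Sesn1, Sesn2, Sesn3, Castor1, Ddit4, Tsc1, Tsc2, Prkab1 and Deptor were taken by name from a table of 25239 mouse genes, and all 9 passed the filter that left 12828 genes for testing.

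RNA was measured in 3 mouse small cell lung cancer lines of Type D, a class the study defined by cell death after p53 restoration. Each line was grown from a single tumor of mice with Rb1 flox/flox and Rbl2 flox/flox alleles, Trp53 XTR/XTR and Rosa26 FlpO-ER, in which adenoviral Cre under the CMV promoter had deleted Rb1 and Rbl2 and trapped Trp53, alterations that all samples share. Each line carried Cas9 with sgBgal, a control guide, or with sgPpia#3.2 or sgPpia#4.1, guides against the cyclophilin A gene Ppia, and was given Vehicle (Control) or 4-OHT (Restored), which lets FlpO-ER remove the trap, for 72 h. The 6 conditions each had 1 sample from each of the lines 4711-1, 4711-18 and 4716-11, 18 samples in all, and values below follow that order of lines.

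Trp53 was at 5.45 to 8.41 TPM (a transcript level scaled for transcript length and library size) in Control and 181 to 236 in Restored samples. Ppia ranged from 2575 to 2849 TPM with sgBgal, from 658 to 1207 with sgPpia#3.2 and from 1684 to 1952 with sgPpia#4.1 in Control cells. In Restored cells Ppia was at 1551 to 2730, 769 to 1233 and 1191 to 1765 TPM, so that sgPpia#4.1 overlapped with sgBgal there. Of the neuroendocrine markers, Chga and Calca stayed under 1 TPM in all 18 samples, Insm1 passed 1 TPM in 6 samples, and Uchl1, Syp and Ncam1 passed it in all 18. Summed fibroblast, endothelial and lung epithelial markers stayed at or under 3.29 TPM in every sample. Of the leukocyte markers, Ptprc and Cd3e stayed under 1 TPM while Cd68 took the summed level from 2.16 to 7.13 TPM in Control to 21.4 to 39.8 TPM in Restored samples, and its part in the results was not tested. A pair of Control libraries stood apart. In 4711-18 sgPpia#3.2 Control, Trib3 was at 260 TPM, Asns at 633 and Ddit3 at 480, the highest of the 9 Control samples for each, and Cdkn1a was at 369 against 99.4 to 171 in the other Control samples. In 4711-1 sgPpia#4.1 Control, Trib3 was at 86.5 TPM and Asns at 285, the next highest of the Control samples. Values are also given without these libraries where that changed a call, a sign or much of the size.

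Restoration of p53 went with a rise of Sesn2 under every guide. With sgBgal, Sesn2 was at 18.0, 15.0 and 8.43 TPM in the Control samples and at 145, 202 and 82.9 TPM in the Restored samples. Under sgPpia#3.2 it was at 9.01, 37.8 and 6.93 TPM in Control and 109, 86.1 and 80.1 TPM in Restored cells. Under sgPpia#4.1 it was at 29.6, 15.0 and 8.67 TPM in Control and 58.6, 158 and 93.5 TPM in Restored cells. Every Restored sample was above every Control sample of all 3 guides, and both of the highest Control values came from the libraries that stood apart. The log2 fold change, from limma on log2(TPM + 1), was 3.25 ± 0.57 (SE) with sgBgal, 2.66 ± 0.57 with sgPpia#3.2 and 2.52 ± 0.57 with sgPpia#4.1, with adjusted p = 0.0018, 0.0086 and 0.011 from limma over all genes tested. Within lines, Restored over Control TPM ran from 1.98-fold in 4711-1 sgPpia#4.1 to 13.5-fold in 4711-18 sgBgal. In bulk RNA, a change in the make-up of the cells and a change in the RNA of each cell cannot be told apart.

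In the fit without a block for line, Sesn2 was the single gene of the 9 to pass both rules in each restoration comparison. These rules were adjusted p under 0.05 and a log2 change of 1 or more in size. Over all genes tested, 7.64% passed both with sgBgal, 5.75% with sgPpia#3.2 and 6.09% with sgPpia#4.1. On adjusted p alone the 9 genes again gave 1 call per comparison, where 13.8%, 10.0% and 10.3% of all genes were called. With line as a replicate block, Castor1 (1.24, limma adjusted p = 0.0029) and Ddit4 (1.78, adjusted p = 0.028) also passed both rules with sgBgal. That fit called 42.1% of all genes on adjusted p with sgBgal. The exact two-sided permutation test of 3 samples against 3 gave p = 0.1 for Sesn2 under each guide, the smallest value that this design allows. The call with sgPpia#3.2 was lost without line 4711-1 (2.26, limma adjusted p = 0.15) and without 4716-11 (2.31, adjusted p = 0.14), and the call with sgPpia#4.1 was lost without 4711-18 (2.13, adjusted p = 0.083) and without 4716-11 (2.14, adjusted p = 0.16). When the sgPpia#3.2 groups were fitted alone, the Sesn2 call was also lost (adjusted p = 0.061). Leaving out the 4711-18 sgPpia#3.2 Control library gave 3.37 (adjusted p = 0.0011), and leaving out the 4711-1 sgPpia#4.1 Control library gave 2.96 (adjusted p = 0.0075).

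The 250 bases before the start of Sesn2 are shown because it was the one gene of the 9 that was called without a block. They come from RefSeq (GRCm38.p6, chr4:132510457-132510706, minus strand), with the CCAAT box, read as CCAAT or as its complement ATTGG, in capitals.
Sesn2: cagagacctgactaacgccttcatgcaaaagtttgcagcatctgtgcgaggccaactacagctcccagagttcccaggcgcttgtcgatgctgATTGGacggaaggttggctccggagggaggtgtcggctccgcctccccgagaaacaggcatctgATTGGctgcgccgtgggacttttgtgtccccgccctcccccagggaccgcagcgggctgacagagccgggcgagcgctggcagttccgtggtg
Promoters were listed for 8 of the 9 genes, as 9 windows. CCAAT was present on either strand in 33.8% of all 32851 windows of this length, the p53 half-site consensus in 7.13%, and TGATGNAA, the amino acid response element bound by ATF4, in 3.45%. Sesn2 held 2 CCAAT boxes and no match to the other motifs, which says only that these letters were not in this window.

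Sesn1 and Sesn3 encode the other sestrins, and neither passed the test without a block. With sgBgal, Sesn1 was at 7.24, 8.52 and 6.21 TPM in Control and 4.90, 7.45 and 8.22 TPM in Restored cells. With sgPpia#3.2 it was at 6.08, 4.81 and 7.21 TPM in Control and 5.29, 8.59 and 9.16 TPM in Restored cells. With sgPpia#4.1 it was at 6.45, 7.58 and 7.73 TPM in Control and 4.69, 6.84 and 7.83 TPM in Restored cells. The groups overlapped under all 3 guides, and the log2 fold changes were -0.10 ± 0.23, 0.29 ± 0.23 and -0.17 ± 0.23 (SE), with limma adjusted p of 0.83, 0.51 and 0.73. The first value turned to 0.09 without line 4711-1, and the sgPpia#3.2 value was 0.16 without the 4711-18 sgPpia#3.2 Control library. Lines differed in direction: Restored was below Control in 3 of 3 pairs of 4711-1, with differences from -0.48 to -0.17 on the log2 scale, and above it in 3 of 3 pairs of 4716-11, from 0.02 to 0.35. The smallest 4716-11 difference, with sgPpia#4.1, was below the median shift of all genes in that comparison (0.15). The difference between lines was not tested.

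RefSeq listed 2 starts for Sesn1, and the second is shown because it was the one window of the 9 genes that held the p53 half-site consensus (GRCm38.p6, chr10:41887189-41887438, plus strand). Capitals mark the half-site, where the consensus matches on both strands and which lies at bases 173 to 164 before the start, and a CCAAT box as ATTGG.
Sesn1: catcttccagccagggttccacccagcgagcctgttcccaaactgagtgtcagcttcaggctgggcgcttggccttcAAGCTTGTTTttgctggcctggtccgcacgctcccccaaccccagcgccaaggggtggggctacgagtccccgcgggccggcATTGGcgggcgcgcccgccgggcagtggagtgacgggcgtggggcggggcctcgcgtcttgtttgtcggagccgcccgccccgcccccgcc
The table holds 1 value per gene, so RNA from the 2 starts cannot be told apart.

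Sesn3 was at 14.4, 12.3 and 10.1 TPM in sgBgal Control and 12.1, 6.81 and 9.07 TPM in sgBgal Restored cells. Under sgPpia#3.2 it was at 9.16, 8.69 and 8.48 TPM in Control and 9.59, 7.90 and 6.86 TPM in Restored cells. Under sgPpia#4.1 it was at 9.79, 8.49 and 9.95 TPM in Control and 7.42, 6.32 and 11.8 TPM in Restored cells. Restored was the lower in 7 of 9 pairs, the groups overlapped under every guide, and the log2 fold changes of -0.38 ± 0.22, -0.11 ± 0.22 and -0.17 ± 0.22 (SE) did not pass (limma adjusted p = 0.29, 0.83 and 0.72). With the replicate block and a median-of-ratios rescaling of the samples together, the sgBgal value passed (-0.58, limma adjusted p = 0.032).

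Castor1, the arginine sensor, was at 3.58, 4.54 and 1.79 TPM in sgBgal Control and 8.24, 21.5 and 3.46 TPM in sgBgal Restored cells. With sgPpia#3.2 it was at 4.48, 16.2 and 1.49 TPM in Control and 10.0, 13.0 and 3.84 TPM in Restored cells. With sgPpia#4.1 it was at 4.07, 5.44 and 1.44 TPM in Control and 6.28, 10.7 and 2.16 TPM in Restored cells. Restored was the higher in 8 of 9 pairs, the exception being 4711-18 sgPpia#3.2, and the groups overlapped under every guide. The lines also lay far apart: the 6 samples of 4716-11 ran from 1.44 to 3.84 TPM and the 6 samples of 4711-18 from 4.54 to 21.5 TPM. The log2 fold changes were 1.24 ± 0.73, 0.56 ± 0.73 and 0.58 ± 0.73 (SE), with limma adjusted p of 0.29, 0.71 and 0.69. With line as a replicate block, the sgBgal value passed (limma adjusted p = 0.0029) and the others did not (0.12 and 0.11). Without the 4711-18 sgPpia#3.2 Control library the sgPpia#3.2 value was 1.30 (adjusted p = 0.28).

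Ddit4, which promotes TSC activity under stress, was at 97.9, 119 and 95.0 TPM in sgBgal Control and 367, 438 and 286 TPM in sgBgal Restored cells. Under sgPpia#3.2 it was at 56.6, 584 and 80.1 TPM in Control and 421, 395 and 312 TPM in Restored cells. Under sgPpia#4.1 it was at 272, 115 and 70.5 TPM in Control and 468, 359 and 367 TPM in Restored cells. The groups did not overlap with sgBgal and sgPpia#4.1 and overlapped with sgPpia#3.2, where the 4711-18 Control library held the highest value of all 18 samples. The log2 fold changes were 1.78 ± 0.65, 1.42 ± 0.65 and 1.59 ± 0.65 (SE), and none passed (limma adjusted p = 0.082, 0.20 and 0.14). Without the 4711-18 sgPpia#3.2 Control library, Ddit4 rose by 2.45 ± 0.41 with sgPpia#3.2 (limma adjusted p = 0.0023), and it also passed without the whole line 4711-18 (2.41, adjusted p = 0.033). Without line 4711-1 the sgPpia#3.2 value was 0.69 (adjusted p = 0.72), and without 4716-11 it was 1.16 (0.61). Without the 4711-1 sgPpia#4.1 Control library the sgPpia#4.1 value was 2.12 (adjusted p = 0.059). With sgBgal, Ddit4 passed with the replicate block (adjusted p = 0.028) and when these 2 groups were fitted alone (0.0071).

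The window before the start of Ddit4 is shown because it is, after Sesn2, the member with the highest fitted change (GRCm38.p6, chr10:59951771-59952020, minus strand). It held 2 CCAAT boxes, in capitals as ATTGG, and neither the half-site nor TGATGNAA.
Ddit4: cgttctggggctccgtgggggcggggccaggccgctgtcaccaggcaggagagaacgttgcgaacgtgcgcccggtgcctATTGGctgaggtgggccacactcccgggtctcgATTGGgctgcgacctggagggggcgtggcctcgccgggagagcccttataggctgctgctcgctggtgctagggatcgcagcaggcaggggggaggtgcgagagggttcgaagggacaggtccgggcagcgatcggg

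In every guide group, 2 of the 9 genes had Control and Restored samples that did not overlap: Sesn2 and Ddit4 with sgBgal and with sgPpia#4.1, and Sesn2 and Tsc1 with sgPpia#3.2. Over all genes tested, 31.3% did not overlap with sgBgal, 26.5% with sgPpia#3.2 and 26.0% with sgPpia#4.1, so the share among the 9 genes was no higher than the background.

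Tsc1 and Tsc2, the subunits of the complex that turns off Rheb, were higher in Restored than in Control cells in 9 of 9 pairs each, by small amounts. With sgBgal, Tsc2 was at 21.3, 30.0 and 17.4 TPM in Control and 30.6, 39.5 and 26.2 TPM in Restored cells. With sgPpia#3.2 it was at 16.6, 23.2 and 13.5 TPM in Control and 26.3, 31.0 and 22.3 TPM in Restored cells. With sgPpia#4.1 it was at 19.0, 23.1 and 19.3 TPM in Control and 22.6, 36.4 and 27.0 TPM in Restored cells. Line 4711-18 was the highest of the 3 lines in every condition, and the groups overlapped for that reason. The log2 fold changes of 0.48, 0.57 and 0.45 (SE 0.25 each) did not pass (limma adjusted p = 0.22, 0.17 and 0.29). With the replicate block they did (limma adjusted p = 0.0073, 0.0033 and 0.013). The table as a whole shifted too, by a median log2 value of 0.19, 0.17 and 0.15 in these comparisons, and a median-of-ratios rescaling brought it to -0.0055, -0.0089 and -0.0048. After that rescaling the blocked values of Tsc2 no longer passed with sgBgal (0.27, adjusted p = 0.072) and sgPpia#4.1 (0.28, adjusted p = 0.071), and the sgPpia#3.2 value still did (0.38, adjusted p = 0.019).

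Tsc1 was at 11.9, 14.1 and 8.38 TPM in sgBgal Control and 16.2, 26.6 and 9.89 TPM in sgBgal Restored cells. Under sgPpia#3.2 it was at 8.19, 9.53 and 7.33 TPM in Control and 14.5, 17.1 and 10.7 TPM in Restored cells, with no overlap. Under sgPpia#4.1 it was at 12.1, 9.68 and 9.99 TPM in Control and 12.9, 20.6 and 10.8 TPM in Restored cells. The log2 fold changes of 0.50, 0.68 and 0.40 (SE 0.31 each) did not pass (limma adjusted p = 0.31, 0.20 and 0.48), and with the replicate block the sgPpia#3.2 value did (adjusted p = 0.016). The within-line difference was smallest in 4711-1 sgPpia#4.1, at 0.09 on the log2 scale, and largest in 4711-18 sgPpia#4.1, at 1.02.

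Prkab1, the beta 1 subunit of AMPK, was at 173, 125 and 145 TPM in sgBgal Control and 139, 121 and 108 TPM in sgBgal Restored cells. With sgPpia#3.2 it was at 122, 117 and 112 TPM in Control and 120.0, 117 and 97.4 TPM in Restored cells, and with sgPpia#4.1 it was at 166, 128 and 121 TPM in Control and 133, 106 and 95.2 TPM in Restored cells. Restored was the lower in 8 of 9 pairs, and the log2 fold changes of -0.26, -0.07 and -0.31 (SE 0.18 each) did not pass (limma adjusted p = 0.36, 0.87 and 0.31). The sgPpia#4.1 value was -0.17 without the 4711-1 sgPpia#4.1 Control library and, over all samples, passed with the replicate block (adjusted p = 0.041). With the block and rescaling together Prkab1 fell by 0.48 with sgBgal and by 0.49 with sgPpia#4.1 (limma adjusted p = 0.0046 and 0.0050), and the sgPpia#3.2 value did not pass (0.077).

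Deptor, the inhibitor that binds mTOR, was at 11.2, 23.9 and 10.5 TPM in sgBgal Control and 13.9, 6.79 and 5.12 TPM in sgBgal Restored cells. Under sgPpia#3.2 it was at 9.80, 30.0 and 9.61 TPM in Control and 12.4, 7.81 and 4.00 TPM in Restored cells. With sgPpia#4.1 it was at 14.9, 18.5 and 10.4 TPM in Control and 12.8, 7.45 and 3.26 TPM in Restored cells. Restored was below Control in every pair of 4711-18, with differences from -1.82 to -1.20 on the log2 scale, and of 4716-11, from -1.42 to -0.91, whereas in 4711-1 the differences ran from -0.21 to 0.31. The log2 fold changes over lines were -0.76, -0.86 and -0.94 (SE 0.53 each) and did not pass (limma adjusted p = 0.38, 0.36 and 0.30). Without the 4711-18 sgPpia#3.2 Control library, which held the highest Deptor value of all 18 samples, the sgPpia#3.2 value was -0.35 (adjusted p = 0.72). Leaving out 1 line, the values ran from -1.29 to -0.31 with sgBgal, from -1.45 to -0.39 with sgPpia#3.2 and from -1.31 to -0.71 with sgPpia#4.1, the most negative without 4711-1 under each guide. None of the 3 passed with the replicate block (adjusted p = 0.13, 0.098 and 0.072). With the block and rescaling together Deptor fell by 1.10 with sgPpia#4.1 (limma adjusted p = 0.045), and the other guides again did not pass (0.069 and 0.057).

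TPM scales for transcript length, so levels can be set in order between genes. In the 9 Control samples the median was 125 TPM for Prkab1, 97.9 for Ddit4, 19.3 for Tsc2, 15.0 for Sesn2, 11.2 for Deptor, 9.79 for Sesn3, 9.68 for Tsc1, 7.21 for Sesn1 and 4.07 for Castor1. In the 9 Restored samples it was 367 TPM for Ddit4, 117 for Prkab1, 93.5 for Sesn2, 27.0 for Tsc2, 14.5 for Tsc1, 8.24 for Castor1, 7.90 for Sesn3, and 7.45 for both Deptor and Sesn1. Sesn2 thus had rank 4 in Control cells and rank 3 in Restored cells. Neighbors in the Control order overlapped over samples throughout, except that Tsc2, at 13.5 to 30.0 TPM, lay below the lowest Ddit4 value of 56.6 TPM. In Restored cells Ddit4, at 286 to 468 TPM, lay above Prkab1, at 95.2 to 139 TPM, and the lowest Sesn2 value of 58.6 TPM lay above the highest Tsc2 value of 39.5 TPM, while the other neighbors overlapped.

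**Figure D1:**
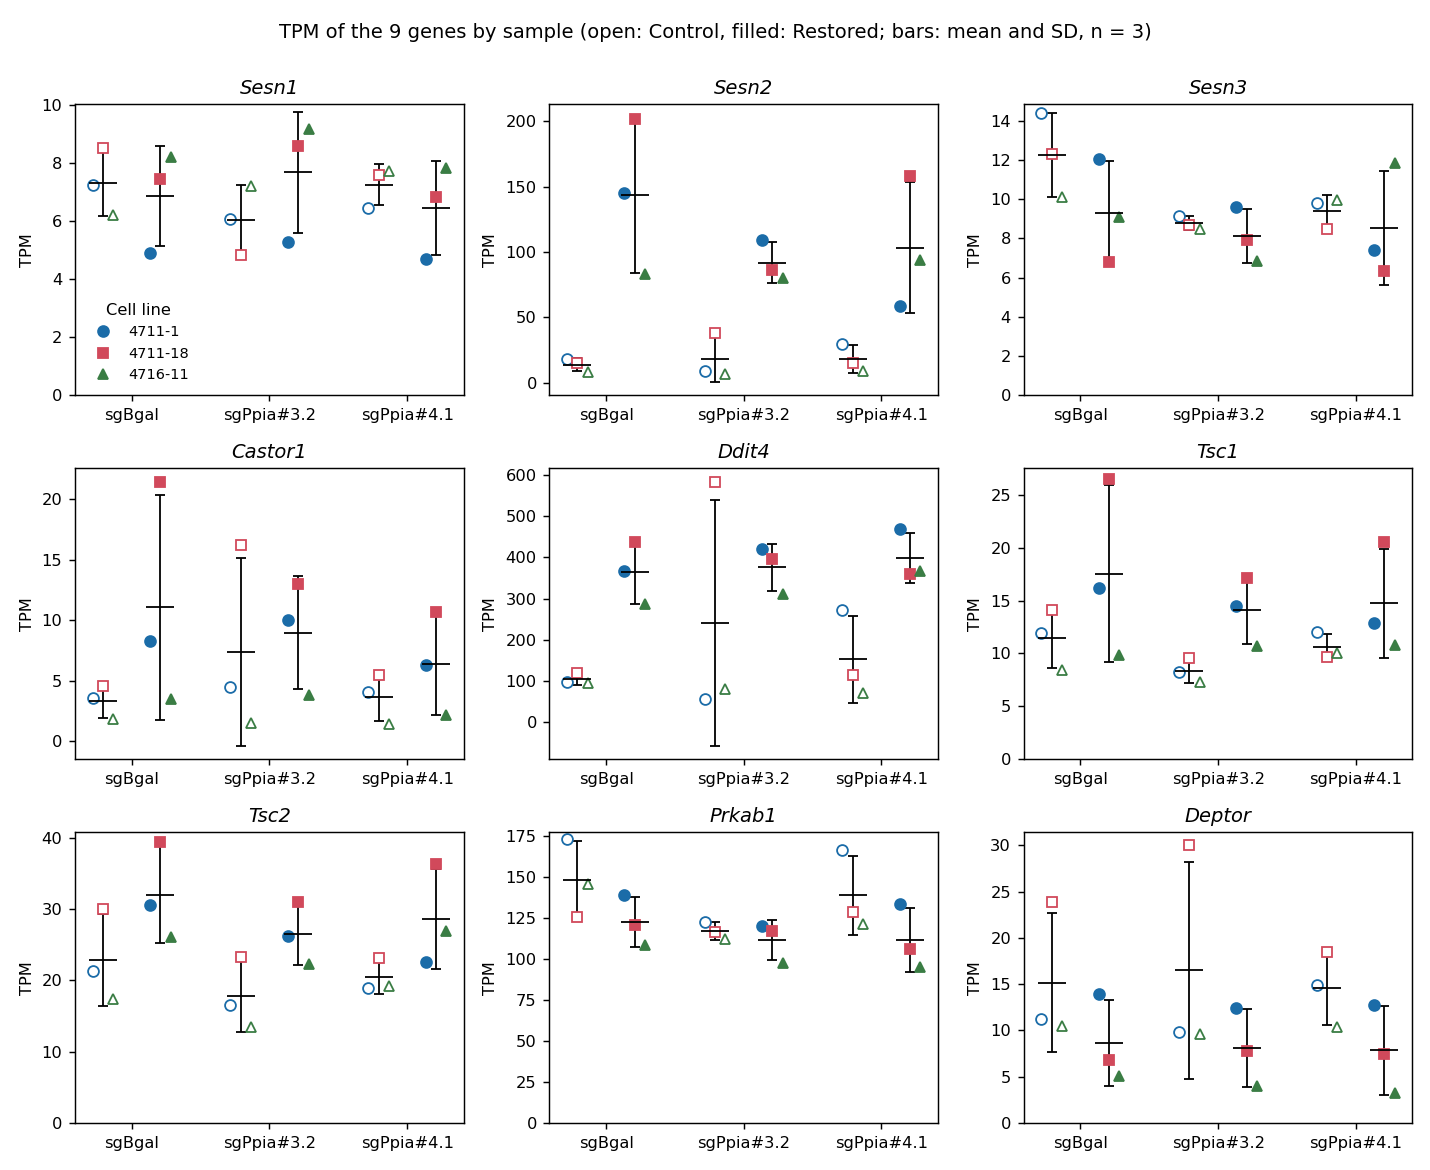
TPM of each gene (y axis, linear from 0 or below) by guide (x axis), with open symbols for Control, filled symbols for Restored, colors and shapes for the 3 lines, and bars for the mean and SD of 3 samples. Sesn2 is the one panel in which all filled symbols lie above all open ones, and Ddit4 shows a single open symbol, at 584 TPM, above every filled one.

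**Figure D2:**
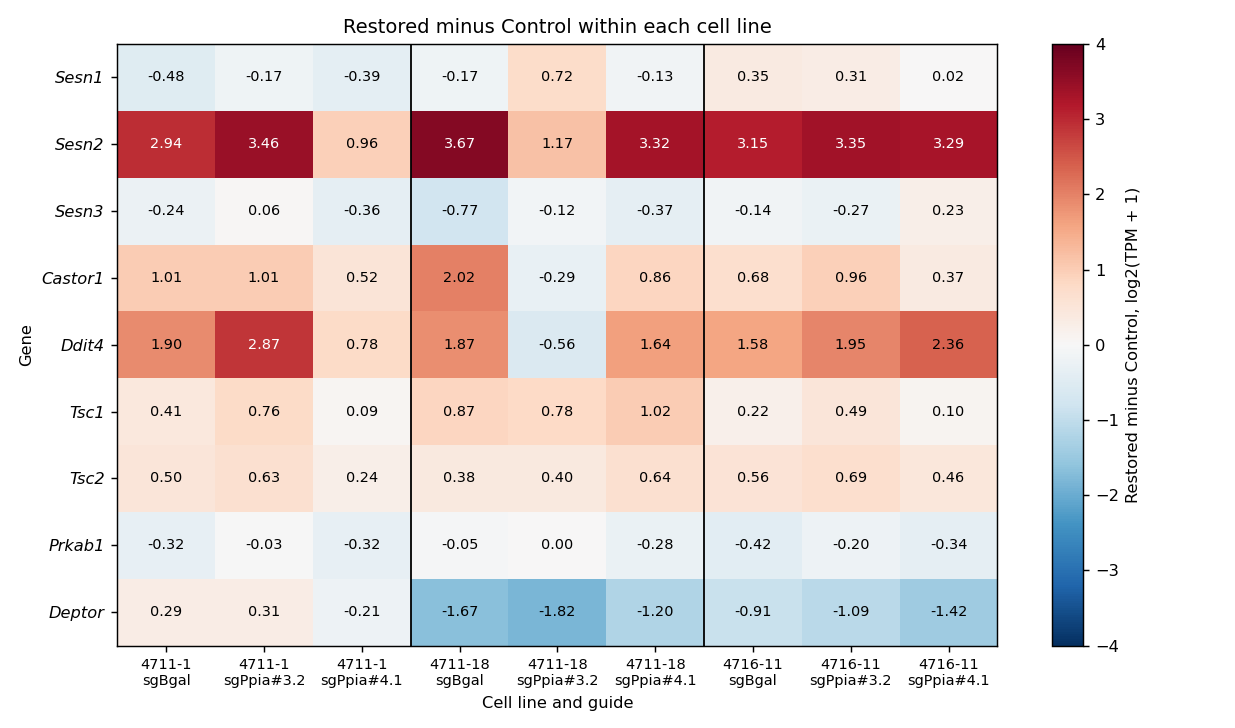
Restored minus Control on the log2(TPM + 1) scale (color and printed value) for each gene (rows) in each line and guide (columns). The Sesn2 row is above 0 in 9 of 9 columns, the Deptor row is below -0.9 in all 6 columns of 4711-18 and 4716-11, and the Ddit4 and Castor1 rows are below 0 in the 4711-18 sgPpia#3.2 column alone.

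With the replicate block, the number of the 9 genes called on adjusted p rose to 4 with sgBgal (Sesn2, Castor1, Ddit4 and Tsc2), 3 with sgPpia#3.2 (Sesn2, Tsc1 and Tsc2) and 3 with sgPpia#4.1 (Sesn2, Tsc2 and Prkab1). The same fit called 42.1%, 34.1% and 35.1% of all genes tested, so these counts were near the background share. The median log2 fold change of the 9 genes was 0.48, 0.56 and 0.40, against the medians over all genes given above.

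**Figure D3:**
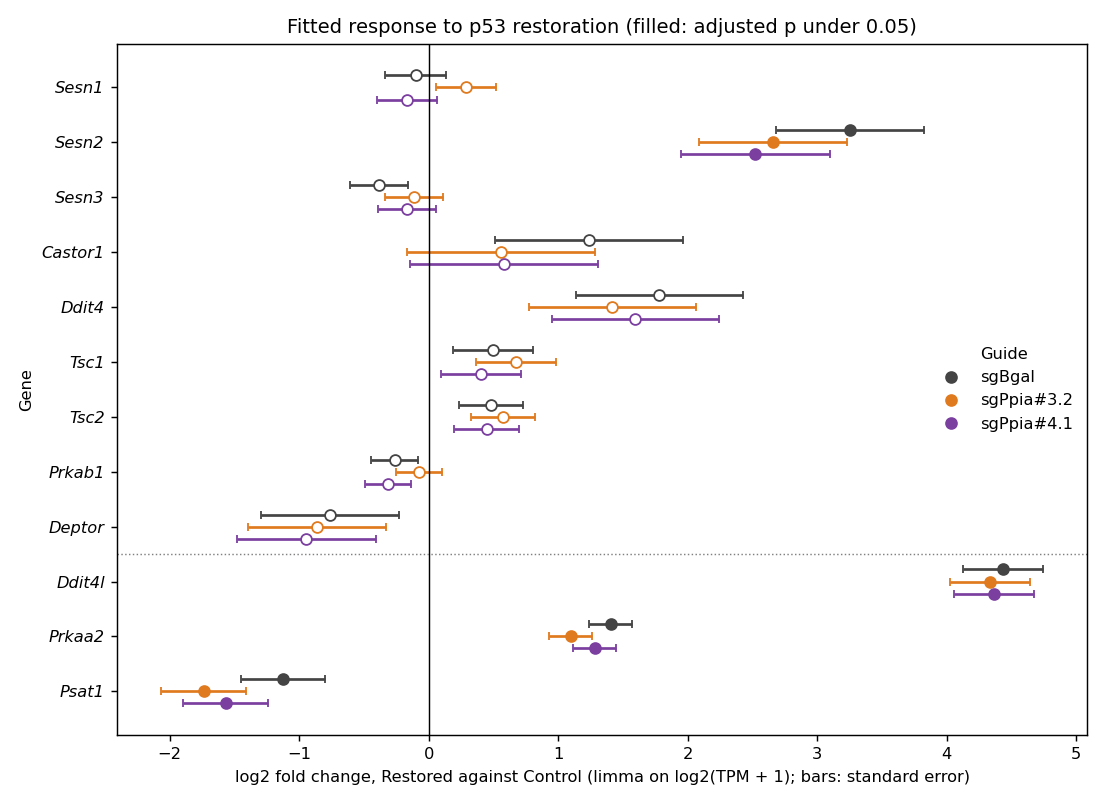
Fitted log2 fold change of Restored against Control (x axis, points) with its standard error (bars) for the 9 genes and, below the dotted line, 3 genes of the wider pathway lists, by guide (colors). Filled points passed an adjusted p of 0.05 in the fit without a block. Among the 9 genes this holds for Sesn2 alone, at 2.52 to 3.25.

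Levels of Sesn2, Ddit4 and Castor1 in Control cells were set beside 6 genes of the ATF4 program, namely Atf4, the factor itself, Ddit3, Trib3 and Chac1 of the stress response, the asparagine synthetase Asns and the serine synthesis enzyme Psat1. The mean log2(TPM + 1) of the 6 was 8.83 in 4711-18 sgPpia#3.2 Control and 7.91 in 4711-1 sgPpia#4.1 Control, and 6.56 to 7.35 in the other 7 Control samples. These libraries also had the highest Sesn2 and Ddit4 of the 9 Control samples, and the first of them the highest Castor1. Among Restored samples the mean was lowest, at 6.04, in 4711-1 sgPpia#4.1 and highest, at 8.10, in 4711-18 sgBgal, and Sesn2 was lowest and highest in these same libraries, at 58.6 and 202 TPM. Ddit4 did not follow that order in Restored cells: it was highest, at 468 TPM, in the library with the lowest mean. The part that the ATF4 program has in these levels was not tested.

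**Figure D4:**
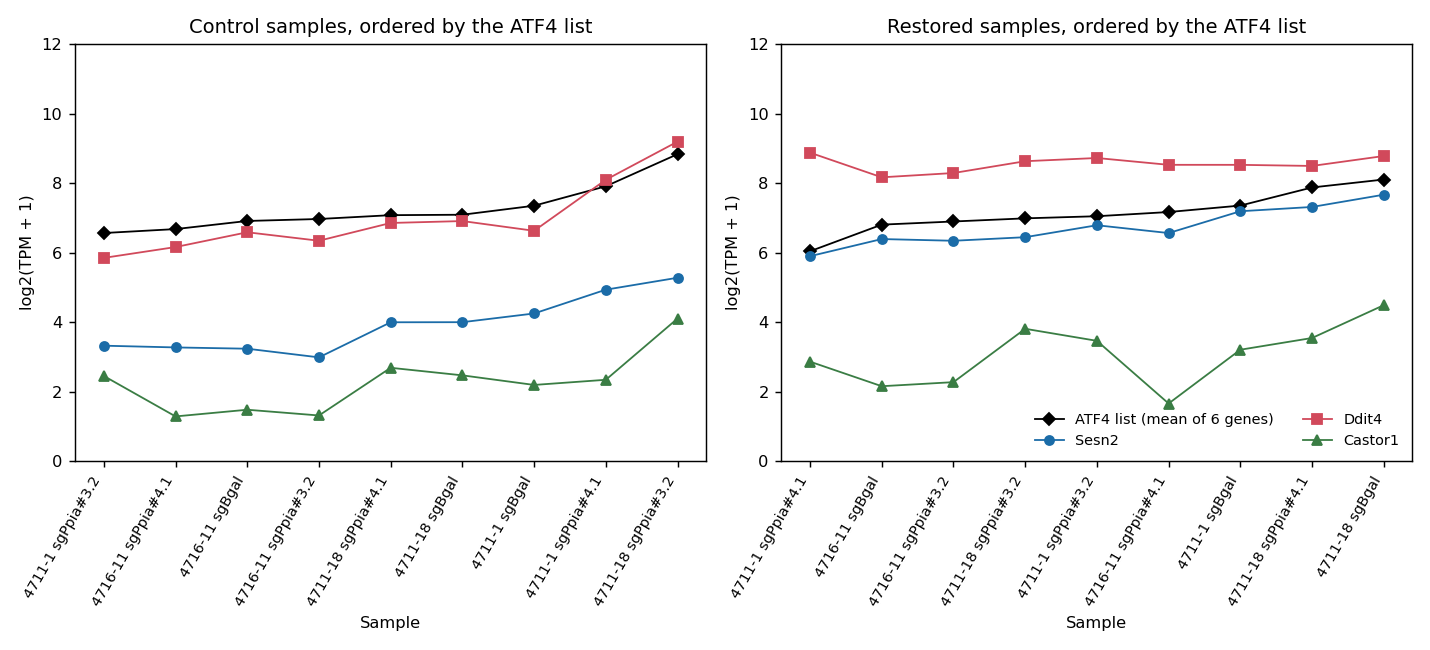
Mean log2(TPM + 1) of the 6 ATF4 program genes (black) and log2(TPM + 1) of Sesn2, Ddit4 and Castor1 (y axis) in each of the 9 Control samples (left) and 9 Restored samples (right), ordered along the x axis by the black line. In Control samples Sesn2 and Ddit4 are highest in the last 2 samples, and in Restored samples Ddit4 stays between 8.17 and 8.87 while the black line runs from 6.04 to 8.10.

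The 9 genes were also read beside 73 other genes of the pathway, of which 71 were tested. On adjusted p, 8 of the 71 rose and 1 fell with sgBgal, 6 rose and 1 fell with sgPpia#3.2, and 5 rose and 1 fell with sgPpia#4.1. These counts are 12.7%, 9.86% and 8.45% of those tested, near the shares of all genes given above. None of the 5 GATOR2 genes, the 8 tested Rag and Ragulator genes, the 3 TSC and Rheb genes, the 6 other amino acid sensing genes or the 3 FoxO genes was called in any of the 3 comparisons without a block. The 3 tested mTORC2 genes gave no call either in that fit. GATOR1 gave 1, 1 and 0 calls of 3 genes in the order of the guides, the mTORC1 subunits 1, 0 and 0 of 4, KICSTOR 1, 0 and 0 of 4, and the readers of mTORC1 1 of 8 in each, all upward. Of the 9 AMPK and LKB1 genes and of the 9 PI3K and AKT genes, 2 each rose under every guide, and of the 6 ATF4 program genes 1 fell under every guide. Under the replicate block 45.1%, 32.4% and 33.8% of the 71 genes were called, beside 42.1%, 34.1% and 35.1% of all genes. That fit called 5, 3 and 3 of the 6 amino acid sensing genes, 7, 5 and 5 of the 9 PI3K and AKT genes, 2, 1 and 2 of the 3 FoxO genes and 1 of the 5 GATOR2 genes under each guide, all upward. Over all lists it called 25, 21 and 21 genes upward and 7, 2 and 3 downward. The downward calls were 2, 1 and 2 of the 8 readers of mTORC1 and 1 of the 6 ATF4 program genes under each guide, and, with sgBgal alone, 2 of the 9 AMPK and LKB1 genes, 1 of the 4 KICSTOR genes and 1 of the 8 Rag and Ragulator genes.

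Ddit4l, Prkaa2 and Psat1 passed adjusted p together with a log2 change of 1 in size. Ddit4l, the paralog of Ddit4 that also restrains mTORC1, ran from 0.844 TPM through a median of 1.28 to 2.23 TPM in the 9 Control samples and from 25.6 through 51.3 to 82.0 TPM in the 9 Restored samples. It rose by 4.44 ± 0.31, 4.34 ± 0.31 and 4.37 ± 0.31 (SE) on the log2 scale, with limma adjusted p = 5.2e-07, 5.8e-07 and 6.4e-07, and the groups lay far apart. Prkaa2, the alpha 2 catalytic subunit of AMPK, went from 0.731 to 1.58 TPM in Control to 2.81 to 5.76 TPM in Restored samples and rose by 1.40, 1.10 and 1.28 (SE 0.17 each; limma adjusted p = 8.3e-05, 0.00071 and 2.0e-04). Psat1 went the other way, from 246 to 622 TPM to 85.9 to 161 TPM, and fell by 1.12, 1.74 and 1.57 (SE 0.33 each; limma adjusted p = 0.034, 0.0035 and 0.0065). Psat1 was lower in Restored cells in 9 of 9 pairs and Sesn2 was higher in 9 of 9, which says nothing of a link between them.

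The 250 bases before the start of Ddit4l are shown because it had the largest rise of the pathway lists (GRCm38.p6, chr3:137623422-137623671, plus strand). Capitals mark a p53 half-site at bases 90 to 81 before the start, and no CCAAT box or TGATGNAA was found.
Ddit4l: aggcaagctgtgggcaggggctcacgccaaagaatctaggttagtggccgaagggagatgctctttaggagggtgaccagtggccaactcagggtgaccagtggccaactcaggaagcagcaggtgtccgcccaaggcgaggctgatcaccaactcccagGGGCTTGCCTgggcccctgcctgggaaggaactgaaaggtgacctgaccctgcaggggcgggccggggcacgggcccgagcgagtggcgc

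The Ppia guides were compared with sgBgal in Control and in Restored cells, and the restoration responses with each other, to ask whether guides against the cyclophilin A gene changed these levels. No gene of the 9 was called in any of the 6 comparisons, where the share called over all genes was 0% by limma adjusted p. Ppia itself was not called, at 658 to 1207 TPM with sgPpia#3.2 and 2575 to 2849 TPM with sgBgal in Control cells. The errors of this fit hold differences between lines, so its lack of calls does not show that the guides had no effect. At an unadjusted p under 0.05 the 9 genes again gave 0 in each of the 6, against 311 and 27 of all genes in Control cells, 154 and 68 in Restored cells, and 31 and 18 for the differences of the responses (sgPpia#3.2 first). With the replicate block the 9 genes gave 3 for sgPpia#3.2 in Control cells, 1 for sgPpia#4.1 in Restored cells and 0 in the other 4, none of which passed the adjustment. The same blocked fit gave 12.69% of all genes for sgPpia#3.2 in Control cells and 3.305% for sgPpia#4.1 in Restored cells.

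Those 3 genes were lower with sgPpia#3.2 than with sgBgal in 3 of 3 lines of Control cells, but none passed. Tsc2 differed by -0.35 ± 0.12 (SE, blocked limma adjusted p = 0.31), Prkab1 by -0.33 ± 0.11 (0.30) and Sesn3 by -0.43 ± 0.19 (0.39). Castor1 differed by 0.58 ± 0.73 in the fit without a block, and by -0.16 without the 4711-18 sgPpia#3.2 Control library, and the unblocked Tsc2 value was then -0.55. In Restored cells Castor1 was lower with sgPpia#4.1 in 3 of 3 lines, with a difference of -0.59 ± 0.27 (blocked limma adjusted p = 0.97).

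The response of Sesn2 to restoration differed from that with sgBgal by -0.59 ± 0.81 (SE) for sgPpia#3.2 and -0.73 ± 0.81 for sgPpia#4.1 on the log2 scale, which is within the errors (limma adjusted p = 1 for both). The corresponding differences were -0.36 ± 0.91 and -0.19 ± 0.91 for Ddit4 and -0.68 ± 1.03 and -0.65 ± 1.03 for Castor1. For sgPpia#3.2 all 3 turned in sign without the 4711-18 sgPpia#3.2 Control library, to 0.12 for Sesn2, 0.67 for Ddit4 and 0.06 for Castor1, and for sgPpia#4.1 Ddit4 turned to 0.34 without the 4711-1 sgPpia#4.1 Control library. The sgPpia#4.1 difference of Sesn2 was -0.30 without that library and ran from -1.16 without line 4716-11 to -0.11 without line 4711-1.

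Over the 18 samples, the genes whose log2(TPM + 1) was most like that of Sesn2 were Fbxl20 (Pearson r = 0.978), Cutal (0.977) and Zfp874a (0.974). For Ddit4 they were Cep97 (0.942), Ypel3 (0.928) and Homez (0.913), for Castor1 Arhgef25 (0.961), Arhgap6 (0.955) and Dtx3 (0.950), and for Deptor Nemp1 (0.912), Far1 (0.900) and Atp8a1 (0.891). Tsc1 was closest to Atxn1l (0.980), Notch2 (0.969) and Dvl3 (0.968), and Tsc2 to Srgap2 (0.969), Slc36a1 (0.966) and Heatr5b (0.965). Sesn1 was closest to C1d (0.861), Gm20324 (0.849) and Ptn (0.824), Sesn3 to Rtn4rl1 (0.781), Myrf (0.778) and Ccdc85c (0.767), and Prkab1 to Ldah (0.890), Mcmbp (0.874) and Ehf (0.869). The likeness was thus strongest for Sesn2, Tsc1 and Tsc2 and weakest for Sesn3. Within the 9, Sesn2 and Ddit4 had r = 0.884 and Tsc1 and Tsc2 also 0.884. These values describe libraries that share lines and treatment.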

How the data were processed

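Total RNA was sequenced from 18 samples of 3 cell lines by Azenta Life Sciences (NEBNext Ultra II libraries). The authors deposited 1 table of TPM values, 1 column per sample. The submitters' processing notes name bcl2fastq 2.17 and HISAT2 with the builds mm10 and GRCm39, the study's methods also name Kallisto, and the counter and annotation are not given in the sources used here. TPM values share 1 fixed sum per sample, so read totals are unknown. From the steps between low values, depth differed by up to 1.78-fold between samples. With no read counts, no counting intervals are given.

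Groups came from the labels. No 2 samples were identical. Genes at 1 TPM or more in at least 3 samples were fitted with limma 3.58.1 (R 4.3.3) on log2(TPM + 1), with 1 mean per condition over all 18 samples and Benjamini-Hochberg adjustment over the 12828 genes tested. Fold changes on this scale understate those of low genes. Single genes were also tested with an exact two-sided permutation test (scipy 1.17.1). The fit without a block was also run on simulated data. There the samples were independent and had no line effect, so that run does not cover samples that share a line. Samples of 1 line share that line across conditions, as labelled, and deviated together: the correlation of deviations from condition means over 45 same-line pairs was 0.729 on average and 0.58 at least. A fit with line as a replicate block was an alternative. Because each replicate is another line, errors without the block hold differences between lines.

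The 9 genes, the pathway lists and the tests were chosen with earlier results of these data known. All 9 genes are named, as are pathway genes called at adjusted p under 0.05 with a log2 change of 1 or more in size after restoration, the label checks, and up to 3 most similar genes, apart from genes that are not reported here. Promoters were matched by symbol, for 8 of the 9 genes, to RefSeq (GRCm38.p6). Further settings tried were rescaling by the median of ratios, 0.1 added in place of 1, other limits on low TPM, the compared groups alone, a robust fit with a trend, leaving out each line, and, chosen after seeing the data, leaving out either library that stood apart. Deptor had no promoter entry.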

Additional observations from a re-analysis of the deposited data

Results flagged for a closer look

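Sesn1 moved in opposite directions in a pair of lines. Restored minus Control on the log2(TPM + 1) scale was below 0 in 3 of 3 guide pairs of line 4711-1 (mean -0.35, from -0.48 to -0.17) and above 0 in 3 of 3 guide pairs of line 4716-11 (mean 0.23, from 0.02 to 0.35). The mean of 4711-1 minus the mean of 4716-11 was -0.57. It was flagged because every pair of the one line moved one way and every pair of the other the opposite way. In 4716-11 the sgPpia#4.1 difference of 0.02 was below the median log2 shift of all genes in that comparison, 0.15. The sgBgal and sgPpia#3.2 differences, 0.35 and 0.31, were above theirs, 0.19 and 0.17. The contrast between lines was not tested, and the pairs of a line are not independent samples.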

How the results depend on the processing

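Counts are given for sgBgal, sgPpia#3.2 and sgPpia#4.1 in that order, and calls are on adjusted p unless a fold is named. Without a block 1 of the 9 genes was called under each guide, and 1773, 1284 and 1322 of all genes (980, 738 and 781 with the fold). With the replicate block 4, 3 and 3 of the 9 genes were called (3 with the fold for sgBgal), and 5407, 4378 and 4505 of all genes (1177 with the fold for sgPpia#4.1). With the block and rescaling together 5, 3 and 3 of the 9 were called (3 and 2 with the fold for sgBgal and sgPpia#4.1), and 4946, 4119 and 4268 of all genes. In the paired fit of sgPpia#3.2 against sgBgal, 2 genes were called in Control cells (1 with rescaling) and 1 in Restored cells, none of them among the 9. With the compared groups alone, 2 of the 9 were called for sgBgal and 0 for sgPpia#3.2, where Sesn2 lost its call, and 959, 428 and 480 of all genes (401 and 474 with the fold for the Ppia guides). Without the 4711-18 sgPpia#3.2 Control library 2 of the 9 were called for sgPpia#3.2.

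Leaving out 1 line gave 1, 0 to 2 and 0 to 1 of the 9, 487 to 973, 229 to 943 and 283 to 823 of all genes, and with the fold 471 to 674, 229 to 633 and 278 to 690. Each of these fits had fewer samples, and the causes of the changed counts were not tested. Leaving out 1 line, Sesn1 with sgBgal ran from -0.33 to 0.091 (without 4711-1), and the differences of the responses from -1.15 to 0.36 for Sesn2, -1.16 to 0.14 for Castor1 and -1.03 to 0.67 for Ddit4 with sgPpia#3.2 (each highest without 4711-18), and from -0.67 to 0.28 for Ddit4 with sgPpia#4.1 (without 4711-1). Without the library that stood apart, the same differences were 0.12 for Sesn2, 0.062 for Castor1, 0.67 for Ddit4 and, with sgPpia#4.1, 0.34 for Ddit4, and Castor1 with sgPpia#3.2 in Control cells was -0.16. Directions were otherwise the same in every setting run for the restoration changes of the 9 genes and for the named guide differences.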
